A study of Mus musculus with 17 samples.

Results

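The genes described here are 10 markers of macrophages and of their activation, taken out of 18193 genes measured in 17 primary abdominal neuroblastomas of TH-MYCN mice. They are Csf1r, Adgre1, Cd68, Mrc1, Cd163, Arg1, Nos2, Marco, Trem2 and Itgam. They were chosen as named markers with earlier results of these data known. A gene counted as measured where a probeset of the Affymetrix mouse array carried its symbol and no other, and the probeset of the highest mean gave its value. All 10 genes were measured, by 14 probesets. Every tumor came from a mouse of the TH-MYCN genotype, in which the rat tyrosine hydroxylase promoter drives human MYCN in cells of the neural crest, carried in hemizygous form on an inbred background according to the study's methods. Macrophages do not belong to this lineage and are host cells of the tumor. Each tumor was hybridized to its own array, the labels give no untreated, normal or second group, and they state no age, sex or site for a single tumor. The comparisons are therefore between tumors, which carry the submitters' numbers from mad548 to mad565.

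Macrophages depend on the receptor tyrosine kinase encoded by Csf1r, which binds the growth factors Csf1 and Il34. Their identity is commonly read from the surface receptor encoded by Adgre1, from the lysosomal protein CD68 and from the integrin chain CD11b, the product of Itgam. The scavenger and lectin receptors Mrc1, Cd163 and Marco and the lipid receptor Trem2 mark macrophages of different tissues and states, whereas the arginine enzymes Arg1 and Nos2 are the textbook pair of alternative and classical activation.

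The tumors carried the marks of their lineage in all 17 samples. The mean of the sympathoadrenal genes Dbh, Th, Chgb and Hand2 lay between 12.20 and 12.98 on the log2 scale. Other tissues were also present in single samples. The mean of 7 hepatocyte genes was 9.66 in mad562 and 7.26 in mad559 but at most 5.61 in the other tumors, and 5 genes of skeletal muscle averaged 13.36 for mad553, 11.43 for mad550 and 11.08 for mad549, with no other tumor above 6.92. Calls in the fit on Csf1r are therefore also given without mad562. As these are bulk samples, fewer macrophages and less macrophage RNA per cell cannot be told apart.

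The promoters of 4 of the genes are printed because they stand for the main kinds of behavior met below. Cd68 and Mrc1 varied with Csf1r over the tumors, whereas Marco and Cd163 had large spreads without passing that test. The sequences are the 250 bases before the annotated start, from RefSeq on GRCm38.p6, 5′ to 3′ on the strand of the gene. Capitals mark the letters GAGGAA, the core of sites bound by the myeloid factor PU.1, or their reverse complement TTCCTC.
Cd68: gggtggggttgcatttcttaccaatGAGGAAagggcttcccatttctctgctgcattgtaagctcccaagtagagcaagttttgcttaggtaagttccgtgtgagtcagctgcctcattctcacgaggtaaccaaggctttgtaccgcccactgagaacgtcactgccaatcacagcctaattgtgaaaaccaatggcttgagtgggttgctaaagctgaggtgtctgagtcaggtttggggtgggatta
Mrc1: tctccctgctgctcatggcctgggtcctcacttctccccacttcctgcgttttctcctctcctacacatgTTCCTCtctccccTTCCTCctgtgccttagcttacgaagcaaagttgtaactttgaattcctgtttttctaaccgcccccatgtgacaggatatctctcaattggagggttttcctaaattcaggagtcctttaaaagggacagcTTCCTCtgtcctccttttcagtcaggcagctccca
Marco: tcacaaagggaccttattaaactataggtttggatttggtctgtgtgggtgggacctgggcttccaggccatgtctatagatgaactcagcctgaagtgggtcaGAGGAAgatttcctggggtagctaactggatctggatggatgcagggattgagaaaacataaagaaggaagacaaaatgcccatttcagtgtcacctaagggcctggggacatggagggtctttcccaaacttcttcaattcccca
Cd163: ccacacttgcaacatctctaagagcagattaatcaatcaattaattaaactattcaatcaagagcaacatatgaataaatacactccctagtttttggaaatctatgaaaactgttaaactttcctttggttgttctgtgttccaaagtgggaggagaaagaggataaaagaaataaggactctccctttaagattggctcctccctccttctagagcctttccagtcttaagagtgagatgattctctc
The window of Cd68 lies at chr11:69666171-69666420 on the minus strand, that of Mrc1 at chr2:14229164-14229413 on the plus strand, that of Marco at chr1:120505025-120505274 on the minus strand and that of Cd163 at chr6:124304401-124304650 on the plus strand. Cd68 held 1 match at -225 from the start, Marco 1 at -146 and Mrc1 3, at -180, -167 and -35, while Cd163 held none. In 2 further windows read but not printed, Trem2 held 1 match and Itgam 2. Of 32851 mouse promoters of the same length, 23.3% held at least 1 match and 3.54% held 2 or more, so the letters are common, and a match in these windows is a description and not a site of binding.

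Csf1r varied more between tumors than most genes. Its log2 value was lowest at 10.40 in mad563, 10.75 at the median and 12.78 in mad562, the highest, a span of 5.19-fold, with an SD of 0.62 (n = 17). Next to mad562 stood mad550 at 12.01, mad565 at 11.56 and mad553 at 11.31, and the other 13 tumors lay between 10.40 and 11.04. The median SD over all genes was 0.19, and 96.1% of genes had a smaller SD than Csf1r. Its 3 probesets followed each other with Pearson's r of 0.92 to 0.95.

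Adgre1 ran from 7.18 in mad563 through a median of 7.98 to 9.77 in mad562, with a mean of 8.10 ± 0.68 (SD, n = 17). The same tumors as for Csf1r were the highest and the lowest, and mad550 at 9.10 and mad565 at 8.97 again followed mad562. Cd68 had a narrower range, from 9.02 in mad556 through 9.57 to 10.81 in mad562, with a mean of 9.64 ± 0.46 (SD, n = 17). Its second highest value, 10.28, was also that of mad550, but mad560 and mad548, at 9.95 and 9.94, were above mad565 at 9.72. Itgam, in contrast, was nearly flat. Its only probeset gave 3.97 to 4.40, with a median of 4.15 and an SD of 0.11, close to the lower end of the deposited values at 3.28. Only 4.67% of genes had a smaller SD. At such a signal the array carries little information on CD11b, and no high or low tumor stood out.

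**Figure D1:**
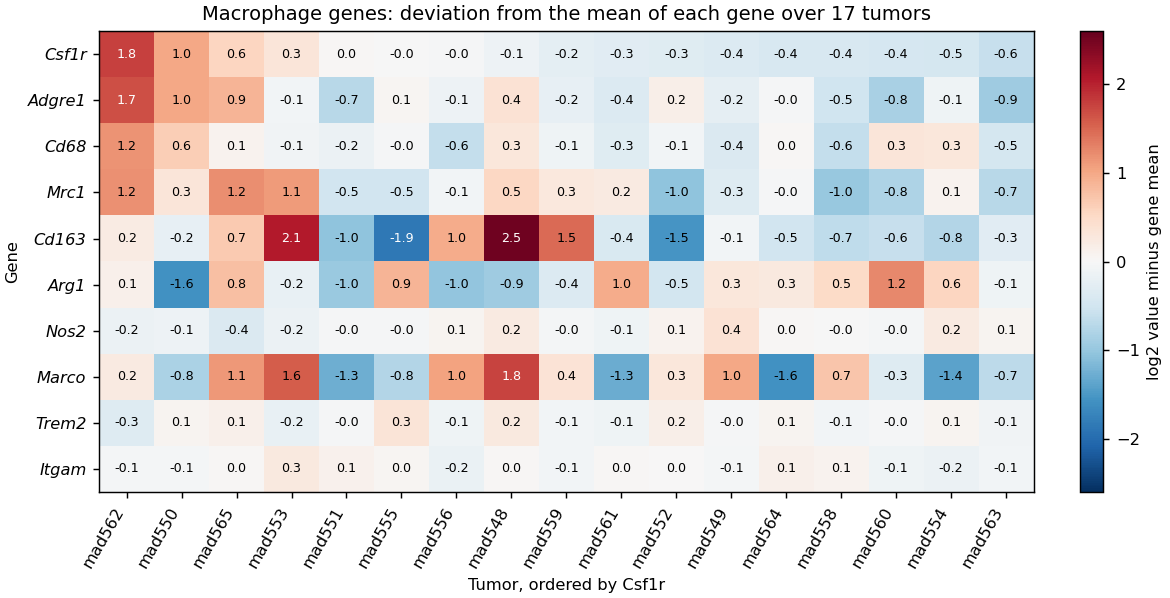
Deviation of each of the 10 genes (rows) from its own mean over the 17 tumors (columns, ordered by Csf1r), in log2 units, with red above and blue below the mean. The tumor mad562, at the left, is the highest for Csf1r, Adgre1 and Cd68, whereas the strongest red of Cd163 and Marco falls on mad548 and mad553, and Nos2, Trem2 and Itgam stay pale in all tumors.

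Among the scavenger receptors, Cd163 and Marco spread over wider ranges than Csf1r and Adgre1, and Mrc1 did not. Mrc1, the mannose receptor CD206, was lowest at 7.58 in mad552, 8.58 at the median and 9.83 in mad565, with an SD of 0.73. It reached nearly the same level in mad562 (9.81) and mad553 (9.73), and the next tumor, mad548, had 9.16. Cd163, the receptor that takes up hemoglobin bound to haptoglobin, ran from 3.89 in mad555 through 5.46 to 8.28 in mad548, a span of 21.1-fold and an SD of 1.20, above that of 99.4% of genes. It was dim in many tumors, with a median rank at percentile 27.7 of the genes within an array and a lowest rank at 1.25. The span therefore starts from values near the lower end of the array. After mad548 came mad553 at 7.82 and mad559 at 7.21, so that mad562, at 5.97, was not among the highest.

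Marco, a receptor for bacteria and particles, was lowest at 6.28 in mad564, 8.08 at the median and 9.61 in mad548, a span of 3.32 log2 units with an SD of 1.09. The values were spread evenly over this range. The median tumor was mad562, the tumor of the highest Csf1r, and mad553 at 9.41 followed mad548. These values belong to the brighter of 2 probesets, and the dimmer one, at 4.73 ± 0.15 (SD, n = 17), did not follow it (r = 0.05). Trem2, the lipid receptor that signals through Tyrobp, moved little, from 6.19 in mad562 through 6.48 to 6.85 in mad555, with an SD of 0.16. Its lowest value was thus found in the tumor where its partner Tyrobp was highest, at 12.08. The other Trem2 probeset varied as little (SD 0.11, n = 17) and had r = 0.11 with this one over the tumors. The values therefore carry little information on differences in Trem2 between tumors.

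The 2 arginine enzymes behaved differently from each other. Arg1, which turns arginine into ornithine, ran from 6.81 in mad550 through 8.52 to 9.63 in mad560, a span of 7.07-fold and an SD of 0.80. High values were also found in mad561 (9.35), mad555 (9.27) and mad565 (9.16), and the lowest tumor was the one with the second highest Csf1r. Nos2, the inducible nitric oxide synthase, stayed between 5.22 in mad565 and 5.96 in mad549, with a median of 5.56 and an SD of 0.17, less than the median SD of all genes. It was dim, with a median rank at percentile 30.1 of the genes within an array. Its small spread, and its relations to other genes, therefore carry limited information.

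To ask which of the other 9 genes varied with Csf1r, the slope of every gene on the log2 value of Csf1r was fitted with limma over the 17 tumors and adjusted over all 18192 genes. The adjusted p was under 0.05 for Adgre1, Cd68 and Mrc1, which rose with Csf1r, and for 3 of the 9 genes in all. Of all genes 4.78% passed, 800 upward (4.40%) and 69 downward. Adgre1 rose by 0.95 ± 0.13 (SE) log2 units per unit of Csf1r (limma, adjusted p = 0.000134). Over the tumors this was a Pearson's r of 0.86 (permutation p = 6e-05) and a Spearman's rho of 0.66 (permutation p = 0.00505). Without mad550 and mad562, the tumors farthest from the median of Csf1r, r was 0.62.

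Cd68 rose by 0.53 ± 0.12 (SE) per unit of Csf1r (limma, adjusted p = 0.0127), with r = 0.72 (permutation p = 0.00288) but rho = 0.33 (permutation p = 0.192). Without mad550 and mad562 its r was 0.13, so the relation of Cd68 to Csf1r rested on those 2 tumors. Mrc1 rose by 0.80 ± 0.20 (SE) (limma, adjusted p = 0.0258), with r = 0.68 (permutation p = 0.00187) and rho = 0.65 (permutation p = 0.00604). Its r was 0.70 without the same 2 tumors.

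The other 6 genes did not pass. Nos2 had r = -0.55 (permutation p = 0.0256, adjusted p = 0.222 by limma) and rho = -0.64, and its r was -0.63 without mad550 and mad562. Trem2 had r = -0.30, Arg1 -0.26, Cd163 0.20, Marco 0.16 and Itgam 0.04, with adjusted p between 0.590 and 0.957 by limma. In Trem2 the sign itself depended on mad562, without which r was 0.14.

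How much mad562 carried was measured by leaving it out. The fit on Csf1r then called 119 genes, 0.654% of those tested, and Adgre1 (r = 0.76, adjusted p = 0.0385 by limma) was the 1 gene of the 9 that still passed. Cd68 had r = 0.46 and Mrc1 r = 0.60 in these 16 tumors. When any other single tumor was left out, Adgre1, Cd68 and Mrc1 all passed, and 779 to 951 genes were called. Without mad550 as well as mad562, limma called no gene on Csf1r, with 2258 genes at an unadjusted p under 0.05. Without mad549, mad550 and mad553, the 3 tumors with muscle RNA, Adgre1 (r = 0.85, adjusted p = 0.00125 by limma) and Mrc1 (r = 0.69, adjusted p = 0.0446) passed, and Cd68 did not (r = 0.68, adjusted p = 0.0608). Without these and both tumors with liver RNA none of the 9 passed, with r of 0.67 for Adgre1, 0.11 for Cd68 and 0.64 for Mrc1 over 12 tumors, and 1748 of all genes at an unadjusted p under 0.05.

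**Figure D2:**
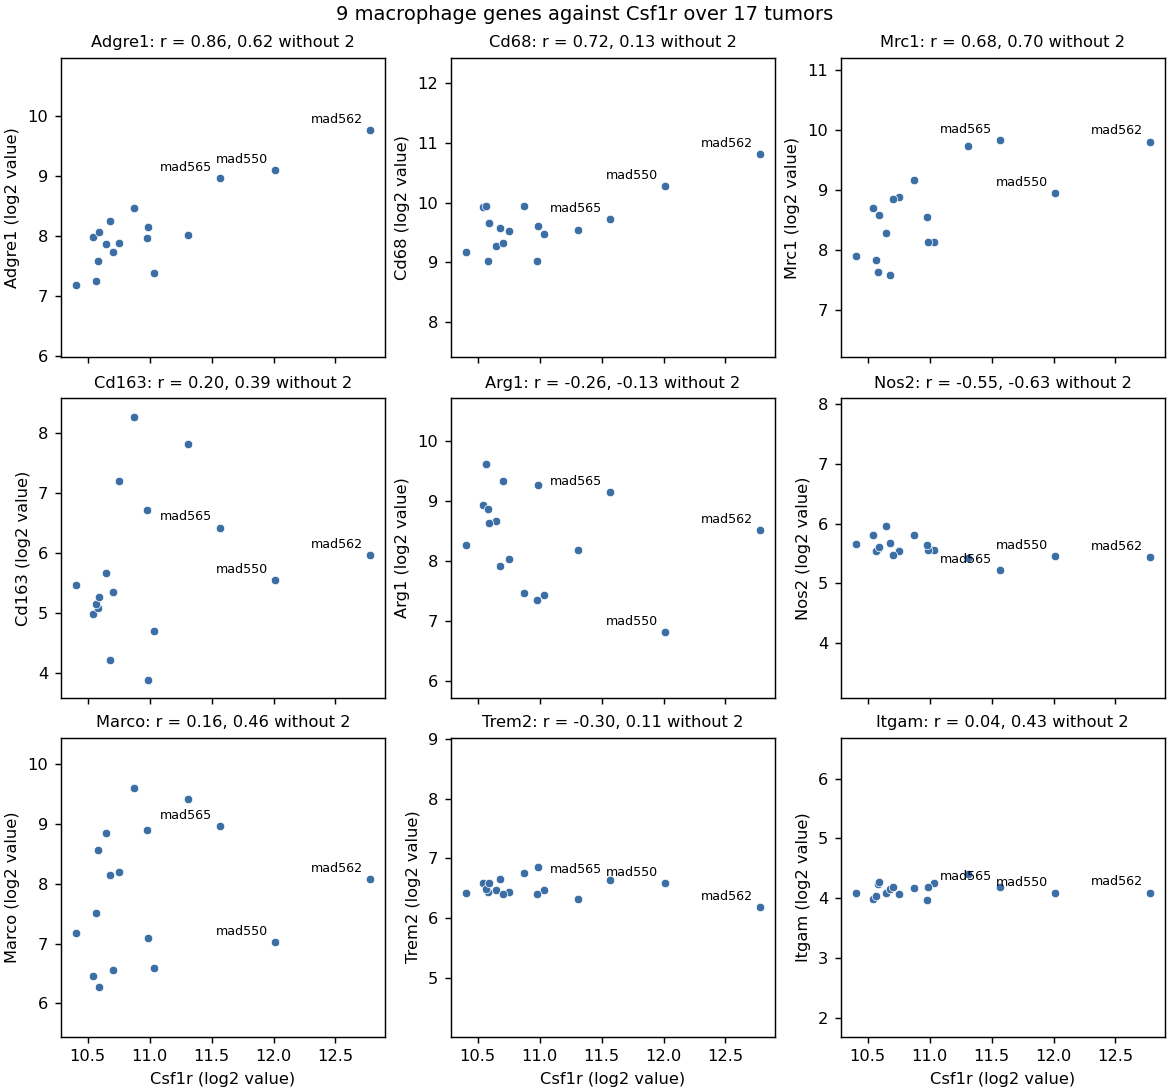
Log2 value of each of 9 genes (vertical axes) against that of Csf1r (horizontal axes) over the 17 tumors, 1 point per tumor, all vertical axes having the same span; "without 2" is r without mad550 and mad562. Adgre1, Cd68 and Mrc1 climb to the right (r = 0.86, 0.72 and 0.68), but the points of Cd68 are level to the left of mad550.

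Because mad562 also held liver RNA, markers of the resident macrophages of liver, the Kupffer cells, were read beside it. Clec4f, the defining gene of Kupffer cells, was at 5.64 in mad562 and between 5.29 and 5.98 in all tumors. This signal was dim and flat (SD 0.19), so it cannot show whether RNA of Kupffer cells was present. Cd5l was highest in mad562 (12.95), as was Timd4 (7.23), whereas Vsig4 was highest in mad548 (7.07). Albumin was at 12.52 in mad562 and 10.26 in mad559, and in mad559, the other tumor with liver RNA, Csf1r was at its median of 10.75. The mean of 6 lymphocyte genes was highest in mad562, at 5.67, and lay between 5.10 and 5.49 in the other tumors. Most genes of that list were dim, with means over the tumors of 4.09 for Cd3g, 4.49 for Cr2, 4.69 for Ms4a1 and 5.26 for Cd79a. Ms4a1 had the largest SD of the list, at 0.44. Of the 3 B cell genes of that list, Ms4a1, which encodes CD20, was highest in mad562 at 6.02. Cd79a, part of the B cell receptor, was at 5.28 there and highest in mad563, and the complement receptor gene Cr2 was highest in mad548. Of the T cell genes Cd3g was highest in mad562, at 4.70, and Cd3e and Cd8a in mad555. The part of liver and lymphoid RNA in the level of Csf1r was not tested.

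A wider list of genes made by macrophages followed Csf1r closely. Of these 16 further genes, 13 rose with Csf1r and none fell (4.40% of all genes rose). The median r of the 16 was 0.82 against -0.14 over all genes. The highest was Tyrobp (r = 0.91), the adaptor of many myeloid receptors, and the lowest Lyz2 (r = 0.50), the myeloid lysozyme, which did not pass. Some of the 16, such as Ptprc, Cd53 and Laptm5, are also made by lymphocytes. All of the 16 but C1qb, Lyz2, Mertk and Fcgr1 were highest in mad562, Ptprc, Cd53 and Laptm5 among them, as was the lymphocyte mean. The part of other leukocytes in the relations of the 16 was not tested. Without mad562 the median r was 0.66, and 2 of the 16 passed, Tyrobp and the protease gene Ctss (0.654% of all genes passed). With Adgre1 in place of Csf1r 14 of the 16 passed (4.67% of all genes), and 11 without mad562 (1.29%). With Cd68 14 passed (4.19% of all genes), and 10 without mad562 (0.396%). With Mrc1 2 passed, the complement gene C1qa and the phagocytic receptor Mertk (0.945% of all genes), and none without mad562 (0.236%). None of the 16 passed in limma with Cd163, Arg1, Nos2, Marco, Trem2 or Itgam, and at an unadjusted p under 0.05 there were 2 with Nos2 and 0 with each of the other 5.

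Activation genes were divided. Of 10 genes of classical activation, Il1b (r = 0.90), the T cell attractant Cxcl9 (r = 0.69) and the costimulator Cd86 (r = 0.80) rose with Csf1r, and the median r of the list was 0.33. Il1b was at 8.87 in mad562 and 7.85 in mad550, against 5.85 to 7.20 in the others, and it passed also without mad562. Cxcl9 (r = 0.37) and Cd86 (r = 0.64) did not pass without mad562. The lowest r of the list was that of Irf5 (-0.32). Of 10 genes of alternative activation Il10 passed, at r = 0.75, and the median r was 0.09. Il10 was at 5.68 in mad562 but at most 4.73 in any other tumor, and it did not pass without mad562. The lowest r of that list was that of the chemokine Ccl17, at -0.35. None of 7 further genes of arginine metabolism passed in limma (1 at an unadjusted p under 0.05), with r from -0.12 for Nos1 to 0.57 for Nos3.

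Among 7 ligands and receptors of the colony-stimulating factors, the receptors Csf3r (r = 0.90) and Csf2rb (r = 0.76) rose with Csf1r. Without mad562 Csf3r passed and Csf2rb (r = 0.61) did not. The ligands of Csf1r itself did not pass, Csf1 having r = 0.41 (adjusted p = 0.396 by limma) and Il34 0.16 (adjusted p = 0.795). Of 7 genes of the lipid program that goes with Trem2 in other tissues, the lysosomal protease Ctsd rose with Csf1r (r = 0.68), though not without mad562 (r = 0.58), and the lowest r was that of Gpnmb (-0.12). With Cd68, 3 of these 7 passed, Ctsd (r = 0.93), the lipid carrier Apoe (r = 0.89) and Lgals3 (r = 0.66). Without mad562 Ctsd and Apoe passed with Cd68 and Lgals3 (r = 0.58) did not. None of the 7 passed in limma with Trem2, 1 having an unadjusted p under 0.05. Whether Cd68 and Csf1r differ in this was not tested.

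Lists of other cells were read in the same fit. On Csf1r, where 4.78% of all genes passed, 4 of 7 hepatocyte genes did, led by Ttr (r = 0.74). None of them passed without mad562, where their median r was -0.15. One further gene passed in each of 5 small lists, Plac8 of 4 monocyte genes, Timd4 of 4 Kupffer cell genes, Ms4a1 of 6 lymphocyte genes, Itgax of 4 dendritic cell genes and Stab2 of 4 genes of lymphatic and sinusoidal endothelium, and none of these without mad562. No neutrophil, adipocyte, skeletal muscle, hypoxia or sympathoadrenal gene passed, which is little information in short lists. An unadjusted p under 0.05 by limma was found for 3 of 8 hypoxia, 2 of 4 sympathoadrenal and 1 of 9 neutrophil genes. No adipocyte or muscle gene had one. Without mad562 the median r of the 5 muscle genes with Csf1r was 0.53, against -0.14 over all genes. The part of muscle RNA in this was not tested. The monocyte receptor Ccr2 had r = -0.11, the T cell gene Cd8a -0.36 and Xcr1, a marker of cross-presenting dendritic cells, -0.48.

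All 45 pairs of the 10 genes were compared in the same way. In 3 pairs each gene passed in the fit on the other, Csf1r with Adgre1, Csf1r with Cd68, and Adgre1 with Cd68 (r = 0.74, permutation p = 0.00109, adjusted p = 0.00902 and 0.0089 by limma). The last had r = 0.36 without mad550 and mad562. Of all genes 4.78% passed in the fit on Csf1r, 4.67% on Adgre1 and 4.19% on Cd68, each share counting 1 direction of fit only. Without mad562 alone, 1 pair passed both ways, Csf1r with Adgre1, and Adgre1 with Cd68 had r = 0.55. Mrc1 passed in the fits on Csf1r and on Adgre1 (r = 0.69, adjusted p = 0.02), but these genes did not pass in the fit on Mrc1 (adjusted p = 0.0603 and 0.0572 by limma).

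Of the pairs that passed in neither fit, Cd163 with Marco and Mrc1 with Cd163 had the strongest r. Cd163 and Marco had r = 0.70 (permutation p = 0.00205) and rho = 0.67 (permutation p = 0.00441), with adjusted p of 0.21 for Marco on Cd163 and 0.376 for Cd163 on Marco by limma. Both were highest in mad548 and next highest in mad553, and without these 2 tumors r was 0.50. It was 0.67 without the 3 tumors with muscle RNA, of which mad553 is 1. Mrc1 and Cd163 had r = 0.66 (permutation p = 0.00364) and rho = 0.72, with adjusted p of 0.0659 and 0.254 by limma. Mrc1 and Marco had r = 0.32. Arg1 and Nos2 had r = -0.13, and the strongest value of Arg1 with any of the 9 other genes was -0.34, with Cd163.

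**Figure D3:**
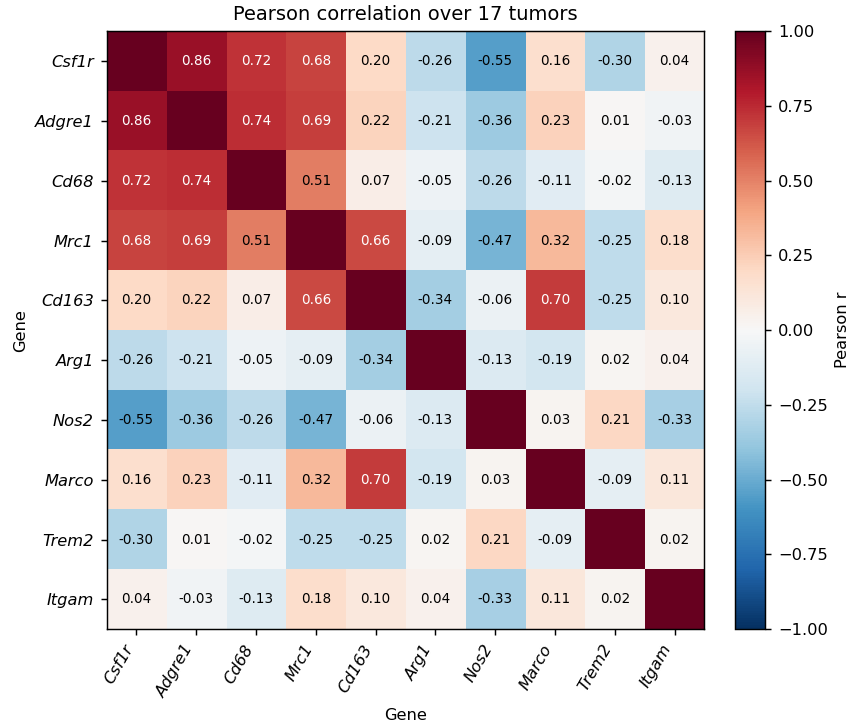
Pearson's r between each pair of the 10 genes over 17 tumors, red for positive and blue for negative values. Csf1r, Adgre1, Cd68 and Mrc1 form a red block in the upper left corner (r = 0.51 to 0.86), Cd163 is joined to Mrc1 (0.66) and Marco (0.70), and the rows of Arg1, Trem2 and Itgam are pale.

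For each gene the gene of the most similar pattern was sought among genes whose mean was not below the median of the arrays. For Csf1r the 10 highest were Nrros, Parp14, Stat6, Rab43, Tlr2, Phf11d, Samd9l, Ptpre, Ptger4 and Myo1f, with r from 0.94 down to 0.93, and from 0.84 to 0.88 without mad562. Tlr2 is a receptor of bacterial lipoproteins, Stat6 a transducer of cytokine signals and Ptger4 a prostaglandin receptor. Adgre1 was closest to Hacd4 (r = 0.97), Cd68 to the lysosomal protease Ctsb (r = 0.95) and Mrc1 to the chemokine Ccl6 (r = 0.90), each of which passed. For the other genes the closest did not pass at an adjusted p under 0.05. They were Snord104 for Cd163 (r = 0.80), Slc30a9 for Arg1 (0.74), Mettl21a for Nos2 (0.88), the fat hormone gene Adipoq for Marco (0.77), Prkaca for Trem2 (0.82) and Krt71 for Itgam (0.74). The fits on Arg1, Marco, Trem2 and Itgam called no gene by limma, with 538, 1145, 1471 and 979 genes at an unadjusted p under 0.05.

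Several of these genes are also made by cells other than macrophages, or change with oxygen. Each was therefore set against the mean of 5 lists, for adipocytes, neutrophils, monocytes, lymphocytes and hypoxia, which gave 50 relations. None passed in limma after adjustment over all genes, while 13 had an unadjusted p under 0.05. Of all genes 0.126% passed with the adipocyte mean, 0.330% with hypoxia, 1.94% with lymphocytes, 0.00550% with monocytes and 0 with neutrophils, where 518 genes had an unadjusted p under 0.05.

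The mean of the adipocyte genes Adipoq, Cidec, Lep, Retn and Fabp4 was 9.05 in mad548, 8.94 in mad556, 8.36 in mad558 and 8.32 in mad562, and 6.15 in mad552, the lowest. Marco had r = 0.73 (permutation p = 0.00125, adjusted p = 0.123 by limma) and rho = 0.70 (permutation p = 0.00243) with this mean, and r = 0.63 without mad548 and mad556. Cd163 had r = 0.64 (permutation p = 0.00561, adjusted p = 0.348 by limma) and r = 0.44 without the same tumors. Csf1r had r = 0.28 and Cd68 r = 0.02. The part of fat tissue in the levels of Marco and Cd163 was not tested.

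With the mean of 8 hypoxia genes Marco had r = -0.67 (permutation p = 0.00326, adjusted p = 0.133 by limma) and Arg1 r = 0.48 (permutation p = 0.0505, adjusted p = 0.45 by limma). The hypoxia mean was highest in mad561 (9.49), mad554 (9.48) and mad560 (9.33). Single hypoxia genes with an unadjusted p under 0.05 numbered 6 of 8 with Marco and 5 of 8 with Arg1, none of which passed after adjustment. Of the tumors high in hypoxia genes, mad560 and mad561 were the 2 highest tumors for Arg1, and mad554 and mad561 were among the 4 lowest for Marco. The monocyte mean was that of Ccr2, Plac8, Chil3 and Fn1. Chil3, which is also in the alternative activation list, had the largest SD of these (1.32) and was at 8.68 in mad565. Ccr2 had an SD of 0.20, so the mean reads Chil3 more than Ccr2. With the monocyte mean, which was highest in mad565 at 8.98, Mrc1 had r = 0.67 (permutation p = 0.0023, adjusted p = 0.256 by limma) and Adgre1 r = 0.62 (permutation p = 0.0103, adjusted p = 0.298). Without mad562 Adgre1 passed with the monocyte mean (r = 0.78, adjusted p = 0.0297 by limma), where 0.484% of all genes passed. With the lymphocyte mean Csf1r had r = 0.66 (permutation p = 0.00817, adjusted p = 0.0638 by limma) but rho = 0.27, and r = 0.31 without mad562. This adjusted p was the lowest of the 50, followed by that of Adgre1 with the same mean (r = 0.62, adjusted p = 0.0952). Csf1r passed with the lymphocyte mean under 4 other settings of scaling or probesets, at adjusted p from 0.0126 to 0.0452 by limma, and Adgre1 under 1 of them, at 0.0491. With neutrophils the highest value was that of Trem2 (r = 0.54, adjusted p = 0.9997 by limma), while Itgam, which neutrophils also carry, had r = -0.05.

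Mrc1 is also made by lymphatic and sinusoidal endothelium. In the fit on Mrc1, 2 of 4 genes of those vessels passed, the hyaluronan receptor Lyve1 (r = 0.77, adjusted p = 0.0263 by limma) and Stab2 (r = 0.72, adjusted p = 0.0452). Of all genes 0.945% passed. Neither passed without mad562, where Lyve1 had r = 0.75 (adjusted p = 0.0509 by limma) and Stab2 r = 0.65 (adjusted p = 0.126). The other 2 genes of the list, Clec4g and Prox1, had negative r with Mrc1 and did not pass. The median r of the 4 was 0.18, so the list as a whole did not follow Mrc1. Lyve1 was highest in mad553, at 8.71, where Mrc1 was at 9.73 and Cd163 at 7.82.

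**Figure D4:**
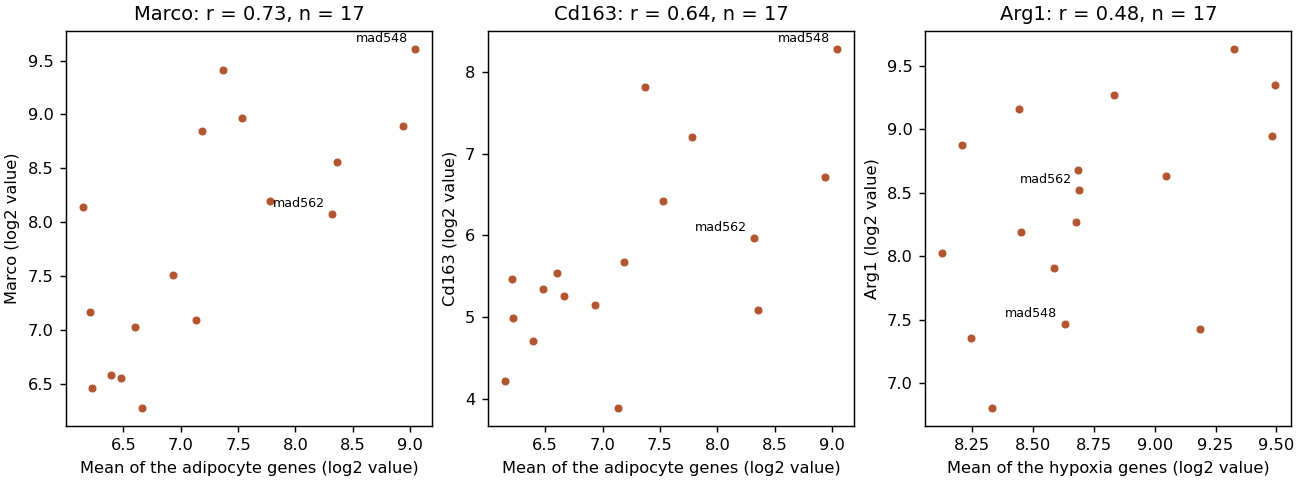
Log2 value of Marco and Cd163 against the mean of 5 adipocyte genes, and of Arg1 against the mean of 8 hypoxia genes, over the 17 tumors (1 point each). Marco and Cd163 are highest in mad548, which also has the highest adipocyte mean (9.05), and mad562 lies inside the cloud in each panel; none of the 3 relations passed after adjustment over all genes.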

How the data were processed

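RNA of 17 TH-MYCN tumors was hybridized to Affymetrix Mouse Genome arrays after a 2-cycle amplification that, by the labels, started from total RNA. The deposited values are log2 expression values per probeset, which the authors made with RMA in Partek 6.4 per the labels (background correction, quantile normalization and summary of probes). The study's methods name MAS5 signals instead, but the range of the values, from 3.28 to 15.59, is that of RMA. Array medians lay between 6.28 and 6.51. The number of arrays limits the precision. The study describes more tumors than the 17 read here and lists as many mice as tumors, although the labels do not tie a tumor to a mouse. Of 45101 probesets, 64 controls were left out, 34945 had a single symbol in the annotation of the platform, 932 had more than 1 and 9160 are unnamed here.

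Each gene took the probeset of the highest mean. Slopes on a gene or list mean were fitted with limma 3.58.1 (lmFit, eBayes) in R 4.3.3, with Benjamini-Hochberg adjustment over all genes and a threshold of 0.05. Pearson's r and Spearman's rho were tested with 100000 two-sided permutations of the tumors in NumPy 2.4.6. Of 125 genes in 17 further lists 116 were measured. The genes and lists were chosen with earlier results of these data known, so their directions are not independent evidence. List genes are named where they have the highest or lowest r with Csf1r in their list or define a cell type. Csf2rb, Cxcl9, Cd86, Ctss, C1qa, Mertk, Apoe, Lgals3, Csf1 and Il34 were named after their values were seen. On simulated data with 18193 genes the fit on Csf1r called 99 of 100 large and 42 of 100 small slopes, none in the wrong direction, and 8 unchanged genes. The simulated noise was independent between genes, whereas the real genes vary together, so these counts do not measure false calls in the tumors. Promoters of 6 of the 10 genes were in the RefSeq table used, and the others are not printed here. Alternatives covered the scaling, the choice of probesets, a filter on dim genes, ranks and the tumors left out.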

Additional observations from a re-analysis of the deposited data

How the results depend on the processing

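Genes called on Csf1r numbered 869 in the 17 tumors. They were 575 with only genes at or above the array median, 0 with ranks in place of log2 values (2633 at an unadjusted p under 0.05 by limma), 119 without mad562, 0 without mad550 and mad562 (2258 unadjusted) and 0 without mad549, mad550, mad553, mad559 and mad562, the tumors with muscle or liver RNA (1748 unadjusted). Of the 9 genes, 3 passed on Csf1r, but 0 with ranks, 1 without mad562 and 0 in both smaller sets of tumors. With each tumor left out in turn, the calls ran from 119 to 951 genes and from 1 to 3 of the 9. Pairs passing both ways numbered 3, but 1 without mad562 and 0 in both smaller sets. With the lymphocyte mean 0 of the 10 genes passed, but 1, Csf1r, with arrays centred on their median, 1, also Csf1r, with the mean of all probesets or with the quantile normalization repeated, and 2, Csf1r and Adgre1, without probesets that can match several transcripts. With the monocyte mean 0 passed, but 1, Adgre1, without mad562 or without mad550 and mad562. All genes called on the lymphocyte mean fell from 352 to 0 with the filter on dim genes (1610 at an unadjusted p under 0.05 by limma). That filter left only Cd3e and Cd8a of the lymphocyte list, so the mean fitted there was a different one. Without mad562 the calls on the lymphocyte mean also fell to 0 (1339 unadjusted). Without mad562 the genes called fell from 849 to 234 on Adgre1, from 762 to 72 on Cd68 and from 172 to 43 on Mrc1, which had 315 with the filter on dim genes. The sign of r with Csf1r turned for Itgam when each gene was the mean of all its probesets (-0.066) and without mad549, mad550 and mad553 (-0.0055). It turned for Trem2 with probesets that can match several transcripts left out (0.082), without mad562 (0.14), without mad550 and mad562 (0.11) and without the 5 tumors (0.33). The mean of all probesets moved the level of Csf1r to 9.67, of Marco to 6.29 and of Trem2 to 6.25. The cause was not tested, beyond the smaller number of tumors or genes and the changed lymphocyte mean. In 12 cases the correlation of a gene with Csf1r kept its sign but no longer passed. The other settings left 96 summary values and 125 single values close to the main value or on the same side of the threshold. The leave-outs of mad550 with mad562, of mad548 and of each tumor, and all leave-outs for the pairs, were chosen after seeing the data. So was every setting for the list means other than centring and the tumors with muscle RNA or mad562 left out. The neutrophil mean could not be computed with the filter on dim genes, which left none of its genes. No paired analysis was possible because there is 1 group with 1 array per tumor.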
